A study of Homo sapiens with 12 samples.

Results

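The genes described here are 10 genes of the endoplasmic reticulum (ER) protein-folding and unfolded protein response (UPR) system, out of 33704 genes with a read in any library. The list of names was matched by symbol to their Ensembl identifiers in the 3 deposited count tables, and all 10 genes passed the filter on low counts in all 3 comparisons. The luminal chaperones and disulphide isomerases are HSPA5 (ENSG00000044574), HSP90B1, CALR, PDIA4, PDIA6 and SDF2L1. HERPUD1, SEL1L and DNAJB9 act in ER-associated degradation, and XBP1 is a transcription factor of the response.

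Messenger RNA was sequenced from Jurkat, an established human T-cell acute lymphoblastic leukaemia line, in 12 libraries that form 6 groups of 2. The group labelled TAL1-KD carried a doxycycline-inducible shRNA against the transcription factor TAL1 and received doxycycline at 5 µg/ml for 72 h, and its control, TAL1-control, was the same line without doxycycline. UTX-KD and UTX-control were built alike with an shRNA against UTX, the KDM6A histone demethylase. J4-2uM cells received the KDM6 inhibitor GSK-J4 at 2 µM for 72 h, against J4-control with DMSO vehicle for 72 h. The shRNA lines grew in Tet-free serum with blasticidin and G418, and the GSK-J4 cells in medium without these drugs. Doxycycline was present only with the shRNA induced, so the effects of drug and shRNA cannot be told apart. Whether a line was 1 clone, and whether replicates were separate cultures, is not given in the sources used here. Each p-value therefore measures only the spread between these libraries, which may be technical.

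Libraries held 55524079 to 82534711 counted reads, and the 10 ER genes took 0.184% to 0.265% of them. Raw counts of these genes ran from 517 reads for DNAJB9 to 81231 for CALR in a library. Neither target was called lower in its own comparison, though for each both induced libraries lay slightly below both controls. TAL1 had 232 and 254 CPM (a count scaled by its library's size) in the libraries labelled TAL1-KD, against 254 and 257 CPM in TAL1-control (log2 fold change -0.074, adjusted p = 0.490, edgeR quasi-likelihood test). KDM6A had 29.3 and 29.4 CPM in the libraries labelled UTX-KD, against 30.9 and 31.3 CPM in UTX-control (log2 fold change -0.083, adjusted p = 0.103). The induced groups are therefore named by label, and no direction below is ascribed to loss of either target. In the other comparisons, TAL1 was lower with the label UTX-KD (-0.12, adjusted p = 0.00155, edgeR) and with GSK-J4 (-0.66, adjusted p = 6.02e-10). KDM6A was higher with GSK-J4 (0.44, adjusted p = 1.24e-07) and not called with the label TAL1-KD (0.19, adjusted p = 0.0576). All 8 T-cell markers had reads in every library (summed level 1892 to 3213 CPM of all counted reads). Of 10 markers of other cell types with reads, CD79A made up most of the sum (37.3 to 97.4 CPM of 42.8 to 111 CPM), and EPCAM was at 0 in 11 libraries. The 2 libraries labelled TAL1-KD differed most from each other, with an SD of log2 ratios between them of 0.437 over genes, against 0.271 to 0.310 within the other groups.

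Proteins entering the ER fold with the help of HSPA5 (BiP), the ER member of the Hsp70 family, HSP90B1 (GRP94), its Hsp90 counterpart, and CALR (calreticulin), a lectin chaperone of glycoproteins that also binds calcium. PDIA4 and PDIA6 form and rearrange disulphide bonds. When unfolded proteins accumulate, the membrane sensors IRE1 (gene ERN1), PERK (gene EIF2AK3) and ATF6 signal to the nucleus. IRE1 splices XBP1 mRNA, ATF6 is cut by the proteases encoded by MBTPS1 and MBTPS2, and PERK acts through ATF4. Proteins that do not fold are moved to the cytosol and degraded through the HRD1 ubiquitin ligase, in which SEL1L is an adaptor and HERPUD1 a scaffold. Gene-level counts do not separate spliced from unspliced XBP1 mRNA.

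The promoters of these genes are known for the ER stress response element (ERSE), to which ATF6 binds together with the CCAAT factor NF-Y, so the sites are shown first. The 250 bases before each RefSeq transcript start (GRCh38.p14) were searched on both strands. The ERSE, CCAAT and CCACG with 9 bases of any kind (N) between them, was present in 5 of the 10 genes, against 0.0916% of 27305 genes, and in 5 of their 13 windows, against 0.074% of 35116 windows. The shorter ERSE-II, ATTGG and CCACG with 1 base N between them, was present in 2 of the 10 genes, HERPUD1 and SDF2L1, against 0.0659% of all genes. Each site is written in the direction of its motif, with the fixed motif bases in capitals.
HSPA5: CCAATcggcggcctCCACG
HSP90B1 far site: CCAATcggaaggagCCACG
HSP90B1 near site: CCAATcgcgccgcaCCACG
PDIA6: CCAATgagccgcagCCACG
CALR: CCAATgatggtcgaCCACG
HERPUD1: ATTGGgCCACG
SDF2L1: ATTGGtCCACG
XBP1: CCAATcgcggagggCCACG

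In GRCh38.p14 the HSPA5 site lies at chr9:125241391-125241409 on the minus strand, 66 to 48 bases before the start. The far HSP90B1 site is at chr12:103930216-103930234 on the plus strand and the near one at chr12:103930321-103930339 on the minus strand. The PDIA6 site is at chr2:10812853-10812871, the CALR site at chr19:12938384-12938402 and the XBP1 site at chr22:28800603-28800621, all on the minus strand. The HERPUD1 site is at chr16:56932025-56932035 on the plus strand, and the SDF2L1 site at chr22:21642114-21642124 on the minus strand. PDIA4, PDIA6 and XBP1 have 2 listed starts each, and the PDIA6 site lies before the second. PDIA4, DNAJB9 and SEL1L had neither motif in these windows. The XBP1 element TGACGTGG (UPRE) was found in 0 of the 10 genes and 0.78% of all genes. A CCAAT box, which the ERSE and, on the opposite strand, the ERSE-II contain, was found in 10 of 10 genes, against 37.0% of all genes, and in 11 of 13 windows, against 32.0% of all windows. Because these promoters were already known for the ERSE, the shares set against all genes are a description and not a test. These matches describe letters in a window and say nothing of binding in Jurkat cells.

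The whole window is shown for HSPA5, whose mRNA differed most between responses to TAL1 and GSK-J4 among the ERSE genes, for HERPUD1 with its ERSE-II, for XBP1 itself, and for DNAJB9, which had neither motif. The windows are chr9:125241344-125241593 (HSPA5, minus strand), chr16:56931892-56932141 (HERPUD1, plus strand), chr22:28800570-28800819 (XBP1, minus strand) and chr7:108569624-108569873 (DNAJB9, plus strand). Each is written 5′ to 3′ along its gene and ends just before the transcript start, outside the transcribed region, and capitals mark the fixed bases of an ERSE or ERSE-II.
HSPA5: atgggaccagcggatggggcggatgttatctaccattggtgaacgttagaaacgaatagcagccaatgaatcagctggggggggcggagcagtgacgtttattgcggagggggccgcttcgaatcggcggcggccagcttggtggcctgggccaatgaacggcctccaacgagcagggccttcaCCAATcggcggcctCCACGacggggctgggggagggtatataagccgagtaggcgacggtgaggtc
HERPUD1: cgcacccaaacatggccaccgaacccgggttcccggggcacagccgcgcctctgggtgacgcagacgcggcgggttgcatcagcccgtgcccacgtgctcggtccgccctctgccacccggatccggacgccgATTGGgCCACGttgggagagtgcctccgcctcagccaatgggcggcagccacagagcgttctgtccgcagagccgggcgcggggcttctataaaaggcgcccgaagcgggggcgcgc
XBP1: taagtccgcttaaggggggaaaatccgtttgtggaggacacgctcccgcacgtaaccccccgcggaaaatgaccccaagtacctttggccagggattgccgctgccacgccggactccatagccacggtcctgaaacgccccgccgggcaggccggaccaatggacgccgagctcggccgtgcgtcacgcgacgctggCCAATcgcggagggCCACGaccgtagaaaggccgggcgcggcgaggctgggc
DNAJB9: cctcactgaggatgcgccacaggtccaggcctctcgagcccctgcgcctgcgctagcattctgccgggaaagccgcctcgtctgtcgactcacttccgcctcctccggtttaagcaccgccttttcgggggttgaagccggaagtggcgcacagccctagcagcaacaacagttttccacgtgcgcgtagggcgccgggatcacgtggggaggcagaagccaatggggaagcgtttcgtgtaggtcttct

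In the libraries labelled TAL1-KD, 7 of the 10 ER genes were higher than in TAL1-control and 0 were lower, with HSPA5, DNAJB9, HERPUD1 and SDF2L1 at 1.83 to 1.98 times the TAL1-control level. None of the 10 was lower at an unadjusted p under 0.05 (edgeR) or by the DESeq2 Wald test either. Of all 16829 genes tested, 26.3% were called higher and 27.9% lower, 54.2% in all. The median log2 fold change was 0.38 over the 10 genes and -0.022 over all genes tested. Groups did not overlap for 9 of the 10 genes, as for 81.0% of all genes. In bulk libraries, fewer cells with a transcript and less of it per cell cannot be told apart. Levels below are CPM after TMM scaling within a comparison, and fold changes are given with their standard errors (SE).

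HSPA5 had 219 and 226 CPM in the libraries labelled TAL1-KD, against 107 and 118 CPM in TAL1-control. Both induced libraries were well above both controls (log2 fold change 0.98, SE 0.09, adjusted p = 0.000318, edgeR). SDF2L1, a partner of ER J-domain proteins and HSPA5, had 24.8 and 30.5 CPM, against 14.2 and 16.0 CPM in TAL1-control (0.87, SE 0.13, adjusted p = 0.00142). The induced libraries were the higher ones here too, and differed more from each other than the controls did. PDIA4 had 186 and 211 CPM with the label TAL1-KD and 149 and 154 CPM in TAL1-control (0.39, SE 0.09, adjusted p = 0.00868). CALR, the most abundant of the 10, had 856 and 927 CPM in the libraries labelled TAL1-KD and 694 and 679.7 CPM in TAL1-control (0.38, SE 0.10, adjusted p = 0.0156). HSP90B1 (361 and 382 CPM, against 307 and 329 CPM in TAL1-control) and PDIA6 (172 and 196 CPM, against 151 and 161 CPM) did not overlap between groups but missed the threshold. Their log2 fold changes were 0.22 with adjusted p = 0.0680 for HSP90B1 and 0.24 with adjusted p = 0.0624 for PDIA6 (edgeR). HSP90B1 and PDIA6 were called higher in the fit on 12 libraries (adjusted p = 0.00196 and 0.00247, edgeR) and with a replicate block (0.0491 and 0.0348). With the trend in GC content and length removed both were also called (0.00777 and 0.0200), and HSP90B1 by the DESeq2 Wald test (0.0492). The fit on 12 libraries shares each gene's spread over all groups. Variation beyond counting error was 8.40% in the TAL1 libraries, against 2.30% (UTX) and 2.69% (GSK-J4). In that fit the SE of HSP90B1 was 0.057, against 0.090 in the reported fit.

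HERPUD1 had 91.5 and 88.0 CPM in the libraries labelled TAL1-KD, against 48.0 and 47.3 CPM in TAL1-control (log2 fold change 0.91, SE 0.07, adjusted p = 0.000258, edgeR). DNAJB9, the ER J-domain cochaperone ERdj4, had 26.7 and 28.2 CPM, against 14.4 and 14.5 CPM in TAL1-control (0.93, SE 0.09, adjusted p = 0.000427). In both genes the replicates lay close together and the groups far apart. SEL1L had 157 and 130.5 CPM with the label TAL1-KD and 145 and 143 CPM in TAL1-control, so the induced libraries lay on either side of the controls (-0.0065, 95% interval -0.24 to 0.23). XBP1 had 122 and 127 CPM in the libraries labelled TAL1-KD, against 96.6 and 103 CPM in TAL1-control (0.32, SE 0.08, adjusted p = 0.0108). Under all 15 alternatives run, HSPA5, HERPUD1, DNAJB9 and SDF2L1 kept their call. Without TAL1-control replicate 1, and likewise without replicate 2, the count fell to 4 as CALR, PDIA4 and XBP1 lost theirs, while without TAL1-KD replicate 1 it was 9 higher and 1 lower, and without TAL1-KD replicate 2 it was 10 higher. The lower gene was SEL1L (-0.13), which stood at 0.12 without TAL1-KD replicate 2. With a TAL1-KD library left out, the spread comes from the TAL1-control pair alone. That pair differed less (SD of log2 ratios 0.303, against 0.437 for TAL1-KD), so the larger counts leave out the wider spread. XBP1 also lost its call under scaling by total counted reads (0.18, adjusted p = 0.0723), and CALR with the trend in GC content and length removed (0.28, adjusted p = 0.0543).

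**Figure D1:**
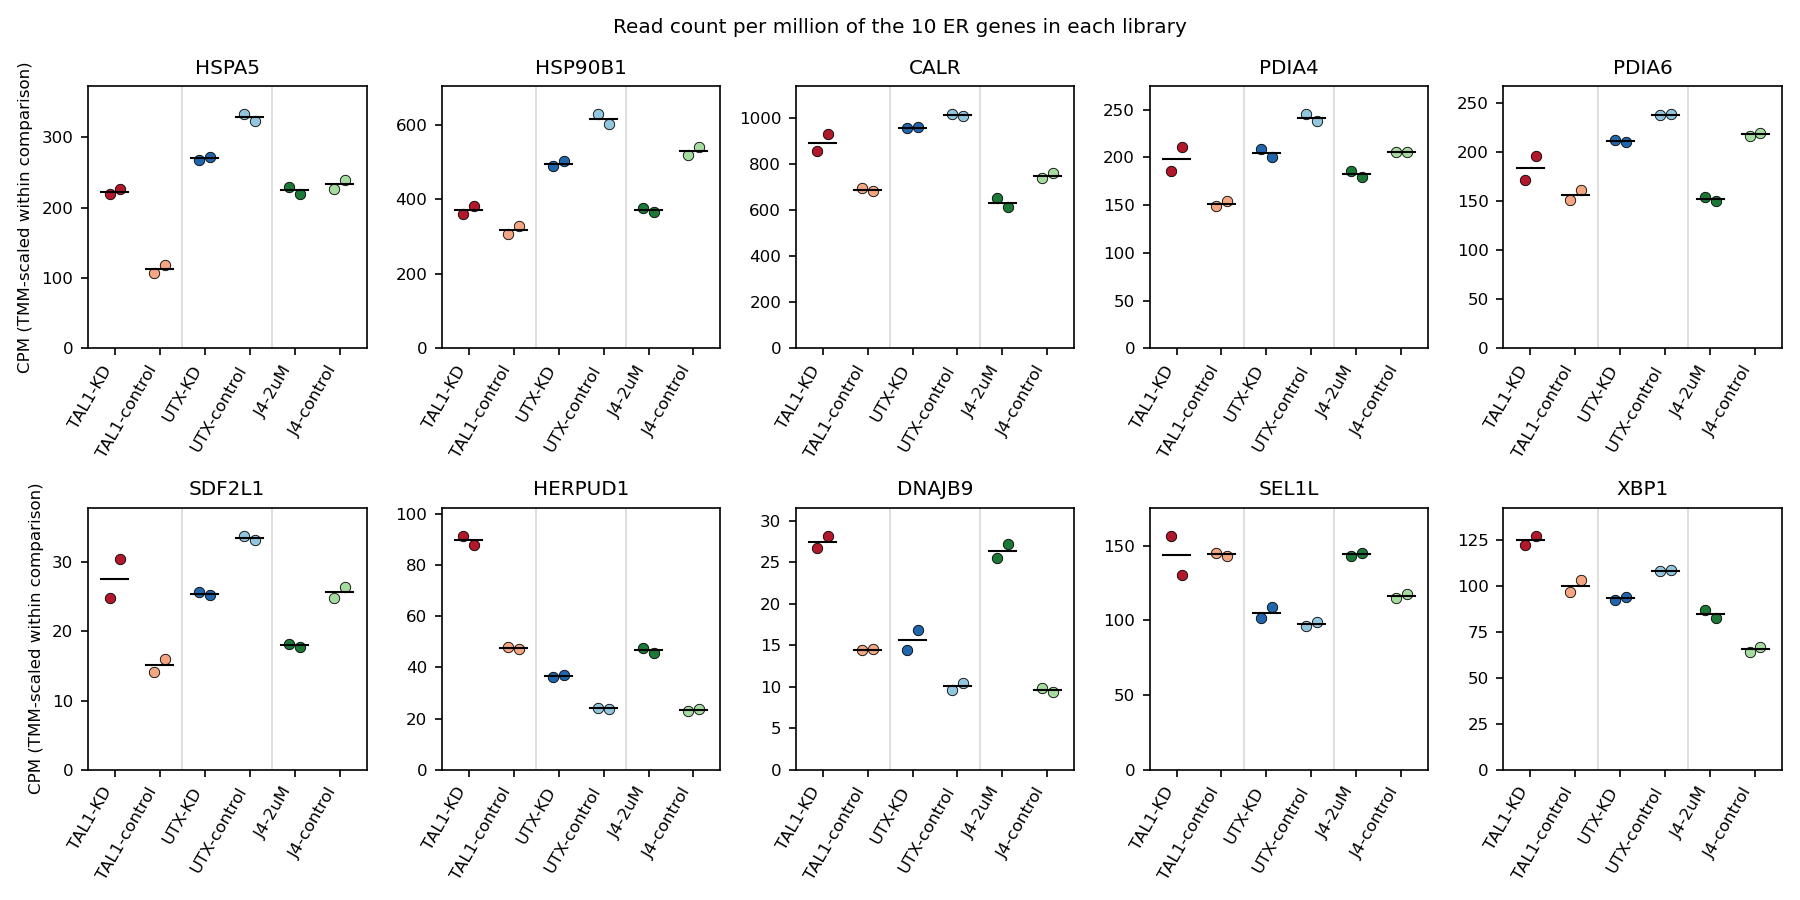
Level of each ER gene in every library, in CPM scaled within its comparison (y axis from 0), with points for the 2 libraries of a group and a bar at their mean. HSPA5 lies at 219 and 226 CPM with the label TAL1-KD against 107 and 118 CPM in TAL1-control, while DNAJB9 and HERPUD1 stand above their control in all 3 comparisons.

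In the libraries labelled UTX-KD the genes split: 3 were higher than in UTX-control (HERPUD1, DNAJB9 and SEL1L) and 7 lower, among them all 6 luminal chaperones and isomerases. Of all 16847 genes tested, 25.2% were higher and 25.3% lower, 50.5% in all. The median log2 fold change was -0.19 over the 10 genes and 0.0087 over all genes. Groups did not overlap for 10 of 10 genes, as for 73.9% of all genes. The decreases were small, with UTX-KD levels at 0.76 to 0.95 times UTX-control.

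SDF2L1 fell most, to 25.7 and 25.2 CPM in the libraries labelled UTX-KD, against 33.9 and 33.2 CPM in UTX-control (log2 fold change -0.40, SE 0.04, adjusted p = 4.81e-07, edgeR). HSP90B1 had 489.7 and 502 CPM with the label UTX-KD and 629 and 604 CPM in UTX-control (-0.31, SE 0.03, adjusted p = 2.61e-07). HSPA5 had 268 and 272 CPM, against 333 and 323 CPM in UTX-control (-0.28, SE 0.03, adjusted p = 5.10e-07). For each of these 3 chaperones both induced libraries lay below both controls. PDIA4 had 209 and 201 CPM in the libraries labelled UTX-KD and 245 and 238 CPM in UTX-control (-0.24, SE 0.03). PDIA6 had 213 and 211 CPM, against 238 and 239 CPM in UTX-control (-0.17, SE 0.03). CALR was nearest to its control, with 953 and 959.5 CPM in the libraries labelled UTX-KD and 1015 and 1006 CPM in UTX-control (-0.079, SE 0.03, adjusted p = 0.0371), and its sign turned (0.014) when libraries were scaled by total counted reads.

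HERPUD1 rose to 36.3 and 37.1 CPM in the libraries labelled UTX-KD, against 24.2 and 23.8 CPM in UTX-control (log2 fold change 0.61, SE 0.04, adjusted p = 2.34e-09, edgeR). DNAJB9 rose to 14.4 and 16.9 CPM, against 9.65 and 10.4 CPM in UTX-control (0.64, SE 0.07, adjusted p = 9.65e-07). These 2 genes stood apart from the luminal chaperones in direction and in size. SEL1L had 102 and 109 CPM with the label UTX-KD and 96.1 and 99.1 CPM in UTX-control (0.11, SE 0.03, adjusted p = 0.0148). XBP1 went with the chaperones, at 92.4 and 93.8 CPM in the libraries labelled UTX-KD, against 108 and 108 CPM in UTX-control (-0.22, SE 0.03, adjusted p = 1.25e-05). Of the 10 calls, those of HERPUD1, DNAJB9 and SDF2L1 held under all 15 alternatives, and a required fold change of 1.2 left 1 of the 7 lower calls, that of SDF2L1. In the fit on 12 libraries the calls of PDIA6 (-0.15, adjusted p = 0.0910), CALR (adjusted p = 0.509) and SEL1L (adjusted p = 0.175) were lost. That fit shares each gene's spread with the more variable TAL1 libraries. The SE of PDIA6 was 0.062 there, against 0.029 in the reported fit. CALR also lost its call without UTX-control replicate 1, UTX-control replicate 2 or UTX-KD replicate 1 (adjusted p = 0.212, 0.112 and 0.0539), with a replicate block (0.0832), with upper quartile scaling (0.170) and with a filter at a mean of 50 reads (0.0514). Under scaling by total counted reads CALR was 0.014 (adjusted p = 0.706). SEL1L also lost its call without UTX-control replicate 1 (adjusted p = 0.131) or UTX-KD replicate 2 (0.129), and by the DESeq2 Wald test (0.0519).

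With GSK-J4, 4 of the 10 genes were higher than with vehicle (DNAJB9, HERPUD1, XBP1 and SEL1L), 5 were lower (PDIA6, SDF2L1, HSP90B1, CALR and PDIA4), and HSPA5 was not called. Of all 17907 genes tested, 37.9% were higher and 36.9% lower, 74.9% in all, so a call alone says little here and the sizes carry more. DNAJB9 stood at 2.74 times and HERPUD1 at 2.00 times the vehicle level. The median log2 fold change was -0.11 over the 10 genes and 0.0084 over all genes. Groups did not overlap for 9 of 10 genes, as for 87.1% of all genes.

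DNAJB9 had 25.5 and 27.2 CPM in J4-2uM, against 9.86 and 9.42 CPM in J4-control (log2 fold change 1.46, SE 0.06, adjusted p = 9.54e-11, edgeR). HERPUD1 had 47.6 and 45.7 CPM in J4-2uM, against 22.9 and 23.7 CPM in J4-control (1.00, SE 0.04, adjusted p = 1.97e-10). The treated libraries of both genes were far above the vehicle libraries. SEL1L rose to 143 and 145 CPM in J4-2uM, against 115 and 117 CPM in J4-control (0.31, SE 0.03, adjusted p = 1.43e-06). XBP1 rose to 87.0 and 82.2 CPM in J4-2uM, against 64.1 and 67.0 CPM in J4-control (0.37, SE 0.04, adjusted p = 1.69e-06).

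Among the luminal genes, PDIA6 fell to 155 and 149.9 CPM in J4-2uM, against 217 and 220.2 CPM in J4-control (log2 fold change -0.52, SE 0.03, adjusted p = 8.79e-09, edgeR). SDF2L1 had 18.2 and 17.8 CPM in J4-2uM and 24.9 and 26.4 CPM in J4-control (-0.51, SE 0.05, adjusted p = 7.03e-07). HSP90B1 had 377 and 367 CPM in J4-2uM, against 518 and 541 CPM in J4-control (-0.51, SE 0.03, adjusted p = 1.52e-08). These 3 genes fell by similar amounts. CALR had 649.6 and 612 CPM in J4-2uM and 736 and 759.8 CPM in J4-control (-0.25, SE 0.04), and PDIA4 had 186 and 179.5 CPM, against 206 and 206 CPM in J4-control (-0.17, SE 0.03). HSPA5 had 229.6 and 219.8 CPM in J4-2uM, against 227 and 239 CPM in J4-control, and the groups overlapped (-0.052, 95% interval -0.13 to 0.028, adjusted p = 0.221). Scaling by total counted reads, which moved the median of all genes by 0.17 on the log2 scale, gave 5 higher and 3 lower, with HSPA5 called higher (0.12, adjusted p = 0.00879) and CALR and PDIA4 not called. HSPA5 was called lower (-0.10, adjusted p = 0.00959) without J4-2uM replicate 1.

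**Figure D2:**
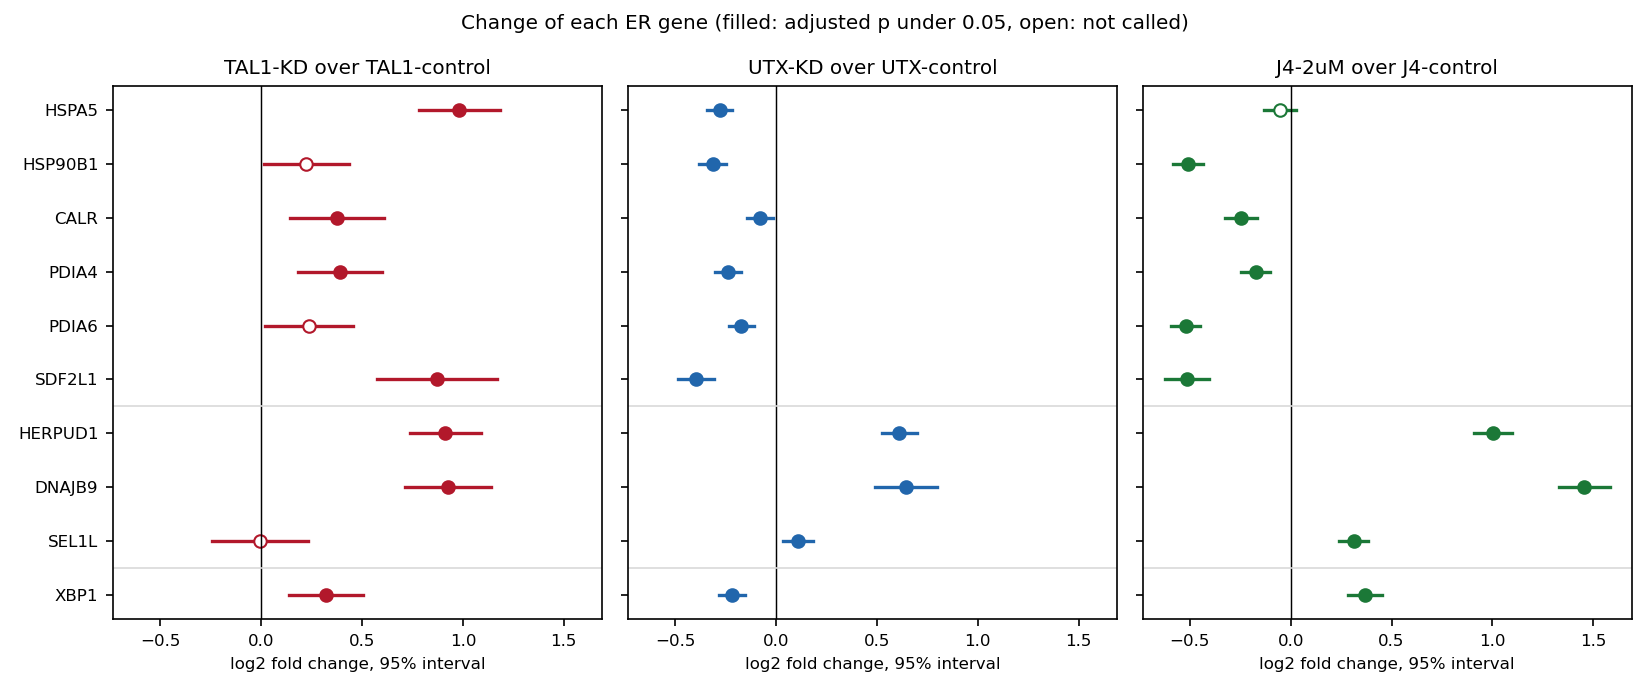
Log2 fold change (x axis) of each ER gene with its 95% interval in the 3 comparisons, filled where the adjusted p was under 0.05 and open where not. Lines divide the 6 luminal genes, the 3 degradation genes and XBP1. The luminal genes lie right of 0 in the TAL1 panel and at or left of 0 in the other 2 panels, while HERPUD1 and DNAJB9 lie right of 0 in all 3.

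By role, the 6 luminal chaperones and isomerases counted 4 higher and 0 lower with the label TAL1-KD, 0 and 6 with the label UTX-KD, and 0 and 5 with GSK-J4. HERPUD1, DNAJB9 and SEL1L counted 2 higher, 3 higher and 3 higher in the same order, with 0 lower in each. XBP1 was higher, lower and higher. Among all genes tested, 26.3% were higher and 27.9% lower, 25.2% and 25.3%, and 37.9% and 36.9% in that order. This division by known role was made with the results in view, so it describes the values and is not a test. Of the ERSE carriers, HSPA5, CALR and XBP1 were called higher and HSP90B1 and PDIA6 not called with the label TAL1-KD. This holds for the reported fit, and HSP90B1 and PDIA6 were called higher under several alternatives. With the label UTX-KD all 5 were lower in the reported fit, though the call of CALR was lost under several alternatives. With GSK-J4, HSP90B1, PDIA6 and CALR were lower, HSPA5 was not called and XBP1 was higher. The ERSE-II carriers HERPUD1 and SDF2L1 were both higher with the label TAL1-KD, and moved in opposite directions with the label UTX-KD and with GSK-J4.

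Whether responses differed was tested as an interaction over the 8 libraries of a pair of comparisons, each against its own control, and the 3 tests share libraries. A response exceeds another here where its signed log2 fold change is higher, whatever the size of the change. The TAL1 response exceeded the UTX response in 8 of 10 genes, was below it in 0 (also 0 at an unadjusted p under 0.05, edgeR), while 25.0% of all genes had a positive and 25.1% a negative call, 50.1% in all. The gap was widest for SDF2L1 (difference of log2 fold changes 1.30, SE 0.14, adjusted p = 0.000135, edgeR) and HSPA5 (1.29, SE 0.09, adjusted p = 1.82e-05). For DNAJB9 the difference was 0.32 (95% interval 0.038 to 0.59, adjusted p = 0.0579), and for SEL1L it was -0.084 (95% interval -0.34 to 0.17), so neither was called. The DNAJB9 difference was called without TAL1-KD replicate 1 (0.36, adjusted p = 0.00515), TAL1-KD replicate 2 (0.27, 0.0310) or UTX-KD replicate 2 (0.43, 0.0307), with a replicate block (0.32, 0.0411) and with the GC and length trend removed (0.48, 0.0127). SEL1L was called (-0.22, adjusted p = 0.00319) without TAL1-KD replicate 1. Scaling by total counted reads, which moved the median difference over all genes by -0.27, left 6 of the 8 calls, with HERPUD1 at 0.066 (adjusted p = 0.599) and PDIA6 at 0.17 (adjusted p = 0.0575). The TAL1 response exceeded the GSK-J4 response in 6 genes, the 6 luminal ones, and was below it in 2, DNAJB9 and SEL1L, where 26.3% of all genes were positive and 27.6% negative, 53.9% in all. SDF2L1 again had the widest gap (1.42, SE 0.15, adjusted p = 2.04e-05) and DNAJB9 ran the other way (-0.50, SE 0.10, adjusted p = 0.00187). HERPUD1 (-0.059, 95% interval -0.24 to 0.12) and XBP1 (-0.016, 95% interval -0.21 to 0.18) were not called between these responses. Under scaling by total counted reads, which moved the median difference by -0.34, both were called (HERPUD1 -0.40, adjusted p = 0.00722, and XBP1 -0.36, adjusted p = 0.00365). The SEL1L difference (-0.29, adjusted p = 0.0431) lost its call with any 1 of the libraries of TAL1-control, J4-2uM or J4-control left out (adjusted p = 0.104 to 0.140) and with the GC and length trend removed (-0.095, adjusted p = 0.331).

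The UTX minus GSK-J4 difference was positive in 3 genes and negative in 5, where 30.1% of all genes were positive and 28.3% negative, 58.4% in all. The positive ones were smaller decreases with the label UTX-KD than with GSK-J4 (HSP90B1 -0.31 against -0.51, PDIA6 -0.17 against -0.52, CALR -0.079 against -0.25). HSPA5, a negative one, was lower with the label UTX-KD (-0.28) and not called with GSK-J4 (-0.052). DNAJB9 (difference -0.82, SE 0.10, adjusted p = 2.38e-08, edgeR) and XBP1 (-0.59, SE 0.05, adjusted p = 9.26e-11) showed the widest gaps, followed by HERPUD1 (-0.40, SE 0.06, adjusted p = 3.37e-06). PDIA6 fell less with the label UTX-KD than with GSK-J4 (difference 0.34, SE 0.05, adjusted p = 3.14e-07). PDIA4 (-0.073, 95% interval -0.17 to 0.026) and SDF2L1 (0.11, 95% interval -0.027 to 0.25) were not called. The CALR difference (0.16, adjusted p = 0.00880) lost its call without J4-control replicate 2 (0.14, adjusted p = 0.0543). Under scaling by total counted reads CALR was 0.089 and not called (adjusted p = 0.0921), and PDIA4 was called (-0.14, adjusted p = 0.00906).

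Levels between genes were compared per kb of exon, with all 12 libraries on 1 TMM scale. Each length merged all annotated exons of a gene (1099 bases for SDF2L1, 5155 for HERPUD1 and 9559 for SEL1L). It can exceed the length of the mRNA made, so the order between genes depends on it. CALR ranked highest in every library, with 207 to 374 CPM per kb, and HSP90B1 next, with 70.0 to 134 CPM per kb. PDIA4 and HSPA5 followed, and their order was not settled: PDIA4 was the higher in 2 groups, HSPA5 in 2, and the ranges overlapped in 2. PDIA6, XBP1, SDF2L1 and SEL1L came next by median level. HERPUD1 (4.11 to 19.2 CPM per kb) and DNAJB9 (3.06 to 10.9 CPM per kb) had the lowest medians.

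The 3 control groups themselves differed, which sets the level from which each change is measured. HSPA5 had 83.6 ± 1.8 CPM per kb in UTX-control and 55.0 ± 2.0 in J4-control, against 30.9 ± 2.3 in TAL1-control (SD, n = 2 each), so UTX-control held 2.71 times the TAL1-control level. SDF2L1 in UTX-control was 2.06 times and HSP90B1 1.80 times TAL1-control. HERPUD1 ran the other way, at 4.64 ± 0.04 CPM per kb in UTX-control and 4.17 ± 0.09 in J4-control, against 9.91 ± 0.08 in TAL1-control. With the label TAL1-KD, HSPA5 reached 62.0 ± 1.9 CPM per kb, still under the 83.6 ± 1.8 of uninduced UTX-control. Line, medium and any difference in handling cannot be told apart from the group here, so these levels carry no test.

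**Figure D3:**
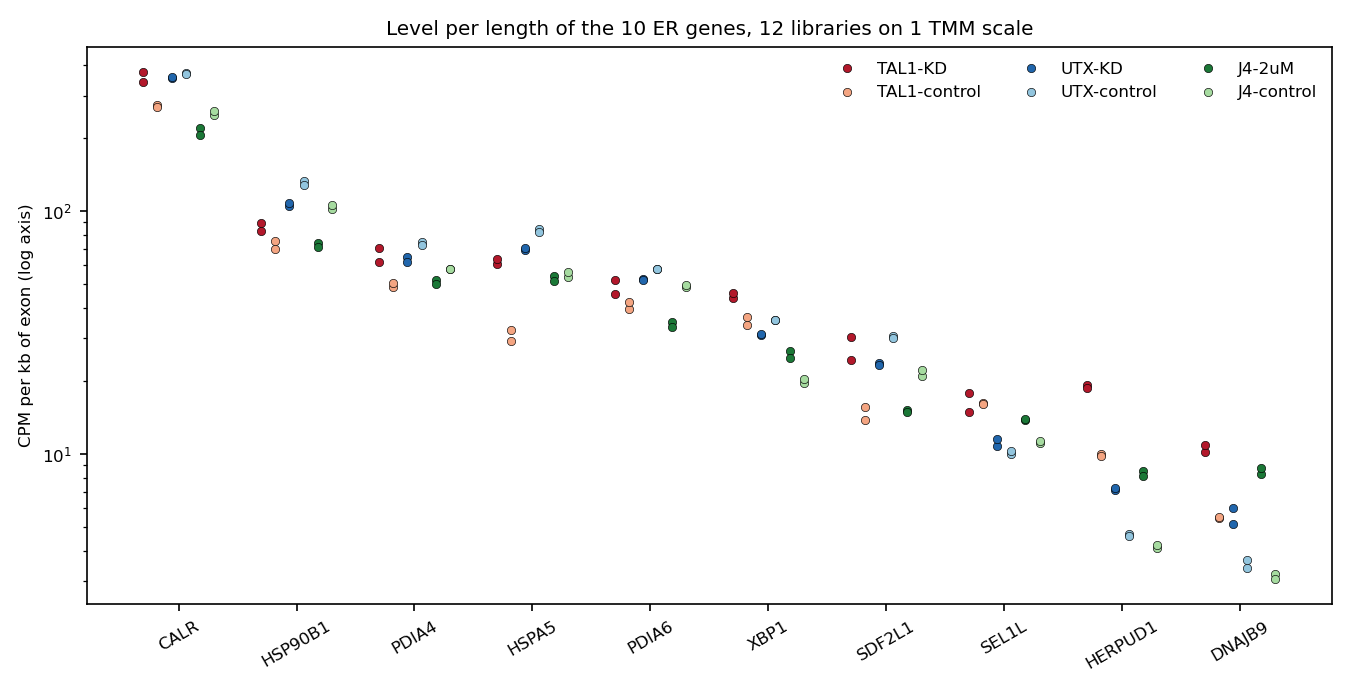
Level of each ER gene per kb of exon (log axis) in the 12 libraries on 1 TMM scale, ordered by median level, with colours for the 6 groups. CALR is highest at 207 to 374 CPM per kb, and the control groups differ, for HSPA5 by 83.6 in UTX-control and 30.9 in TAL1-control.

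Across the 12 libraries, after the mean of each comparison was subtracted, HERPUD1 and DNAJB9 had a Pearson correlation of 0.98, PDIA4 and SDF2L1 0.98, and PDIA6 and HSP90B1 0.96. PDIA6 and SEL1L ran opposite (-0.85). These values describe libraries that share lines and treatments and carry no p. Among 10951 genes compared, those most like HSPA5 were KMT2E, MAPK6, BAG3, TRIAP1 and NUP153 (r 0.99 each). Those most like DNAJB9 were KLHL28, UTY, GPATCH2, CREBRF and DUSP8 (r 0.99 to 1.00), and those most like XBP1 were ZFAND2A, MRPL2, TMEM11, USP39 and GALK2 (r 0.98 each).

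ERN1, which encodes IRE1, was higher in all 3 comparisons: 197 and 203 CPM with the label TAL1-KD against 123 and 119 CPM in TAL1-control (log2 fold change 0.73), 57.1 and 56.0 CPM with the label UTX-KD against 39.0 and 36.8 CPM in UTX-control (0.57), and 78.1 and 82.2 CPM in J4-2uM against 38.9 and 38.7 CPM in J4-control (1.05). Of the 6 sensors and ATF6 proteases, 1 was higher and 2 lower with the label TAL1-KD, 3 and 0 with the label UTX-KD, and 3 and 2 with GSK-J4, where 54.2%, 50.5% and 74.9% of all genes were called. MBTPS2, an ATF6 protease, had 11.3 and 8.65 CPM in the libraries labelled TAL1-KD, against 21.7 and 22.2 CPM in TAL1-control (-1.13, SE 0.14, adjusted p = 0.000757, edgeR). EIF2AK3, the PERK gene, was lower with the label TAL1-KD (-0.30, adjusted p = 0.0354) and higher with GSK-J4 (0.32, adjusted p = 7.88e-06). ATF6 was higher with the label UTX-KD (0.29, adjusted p = 5.62e-07) and lower with GSK-J4 (-0.11, adjusted p = 0.0110).

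Genes downstream of PERK had a median log2 fold change, over 5 genes, of 0.74 with the label TAL1-KD, 1.13 with the label UTX-KD and 1.88 with GSK-J4, beside 0.38, -0.19 and -0.11 for the 10 ER genes. Calls were 3 higher and 1 lower, 5 and 0, and 4 and 1, where 54.2%, 50.5% and 74.9% of all genes were called. PPP1R15A, which encodes a phosphatase subunit that reverses PERK's phosphorylation of eIF2α, had 186 and 182 CPM in J4-2uM, against 24.6 and 25.9 CPM in J4-control (2.86, SE 0.04, adjusted p = 6.50e-15, edgeR). It also rose with the labels TAL1-KD (1.33, SE 0.11, adjusted p = 0.000258) and UTX-KD (1.13, SE 0.05, adjusted p = 2.17e-11, edgeR). DDIT3, the transcription factor CHOP, rose to 26.1 and 27.0 CPM with the label UTX-KD, against 10.4 and 9.57 CPM in UTX-control (1.40, SE 0.05, adjusted p = 2.02e-12). DDIT3 was also higher with the label TAL1-KD (0.77, adjusted p = 0.000624, edgeR) and with GSK-J4 (1.88, adjusted p = 4.28e-12). ATF3, a stress-responsive transcription factor, rose with the label UTX-KD (1.27) and with GSK-J4 (2.27). The 2 lower calls were TRIB3 with the label TAL1-KD (-0.42, adjusted p = 0.0250) and ATF4 with GSK-J4 (-0.24, adjusted p = 2.28e-05), singled out after their values were seen. TRIB3 was higher with the label UTX-KD (1.00) and with GSK-J4 (1.67), and ATF4 was higher with the labels TAL1-KD (0.74) and UTX-KD (0.40). These genes also respond to the other eIF2α kinases, which no value here separates from PERK.

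Of 14 other ER chaperones and cochaperones, 10 were higher and 1 lower with the label TAL1-KD, 7 and 4 with the label UTX-KD, and 9 and 4 with GSK-J4. Over all genes, 26.3% were higher and 27.9% lower, 25.2% and 25.3%, and 37.9% and 36.9% in the same order. SDF2, a relative of SDF2L1, had 38.7 and 44.8 CPM in the libraries labelled TAL1-KD, against 20.4 and 20.4 CPM in TAL1-control (log2 fold change 1.03, SE 0.10, adjusted p = 0.000404, edgeR). DNAJB11, a J-domain partner of HSPA5, was higher in all 3 comparisons (0.65, 0.23 and 0.39). MANF, a secreted ER stress protein, was higher with the label TAL1-KD (0.61, adjusted p = 0.000741), lower with the label UTX-KD (-0.29, adjusted p = 1.43e-06) and higher with GSK-J4 (0.11, adjusted p = 0.0201). DNAJC1, an ER membrane J-domain protein, rose to 60.4 and 58.8 CPM in J4-2uM, against 18.2 and 18.4 CPM in J4-control (1.70, SE 0.04, adjusted p = 1.34e-12), and with the label UTX-KD (0.57, adjusted p = 3.39e-08). UGGT1, the glycoprotein folding checkpoint enzyme, was lower in all 3 (-0.63, -0.27 and -0.54). The medians of the list were 0.58, 0.095 and 0.11, beside -0.022, 0.0087 and 0.0084 over all genes.

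Of 12 other oxidoreductases, 6 were higher and 1 lower with the label TAL1-KD, 3 and 5 with the label UTX-KD, and 3 and 6 with GSK-J4 (54.2%, 50.5% and 74.9% of all genes called), with medians of 0.31, -0.078 and -0.15. ERP44, which retains proteins in the early secretory pathway, was higher in all 3 (0.72, 0.36 and 0.61), whereas ERO1A, the oxidase that recharges disulphide isomerases, was lower with the label UTX-KD (-0.38, adjusted p = 9.55e-08, edgeR) and with GSK-J4 (-0.49, adjusted p = 8.85e-08). TMX3, a membrane thioredoxin-like protein, fell to 31.8 and 25.3 CPM in the libraries labelled TAL1-KD, against 56.6 and 59.2 CPM in TAL1-control (-1.02, adjusted p = 0.000614), and was also lower with GSK-J4 (-0.30, adjusted p = 4.94e-06).

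Of 18 other ER-associated degradation genes, 8 were higher in each comparison and 3, 3 and 7 were lower (54.2%, 50.5% and 74.9% of all genes called), with medians of 0.0074, 0.040 and 0.0083. VCP, the ATPase that pulls proteins out of the ER, was higher with the label TAL1-KD (log2 fold change 0.62, adjusted p = 0.00166, edgeR), lower with the label UTX-KD (-0.26, adjusted p = 1.76e-06) and lower with GSK-J4 (-0.61, adjusted p = 2.21e-09). EDEM1, which directs misfolded glycoproteins to degradation, was lower with the label TAL1-KD (-0.38, adjusted p = 0.0384), higher with the label UTX-KD (0.33, adjusted p = 2.81e-07) and lower with GSK-J4 (-0.20, adjusted p = 7.50e-05).

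Of 15 genes of the translocation machinery, through which new proteins enter the ER, 10 were higher and 1 lower with the label TAL1-KD, 5 and 6 with the label UTX-KD, and 7 and 5 with GSK-J4 (54.2%, 50.5% and 74.9% of all genes called), with medians of 0.44, -0.029 and 0.047. SRPRA, a subunit of the signal recognition particle receptor, had 356 and 427 CPM in the libraries labelled TAL1-KD, against 178 and 184 CPM in TAL1-control (log2 fold change 1.11, SE 0.11, adjusted p = 0.000413, edgeR). It was also higher with the label UTX-KD (0.30, adjusted p = 3.41e-07) and with GSK-J4 (0.48, adjusted p = 1.71e-08). SEC61B, a subunit of the channel itself, fell to 37.9 and 37.6 CPM in J4-2uM, against 57.6 and 57.8 CPM in J4-control (-0.61, adjusted p = 4.63e-09). It was higher with the label TAL1-KD (0.67, adjusted p = 0.00162) and not called with the label UTX-KD (-0.048).

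**Figure D4:**
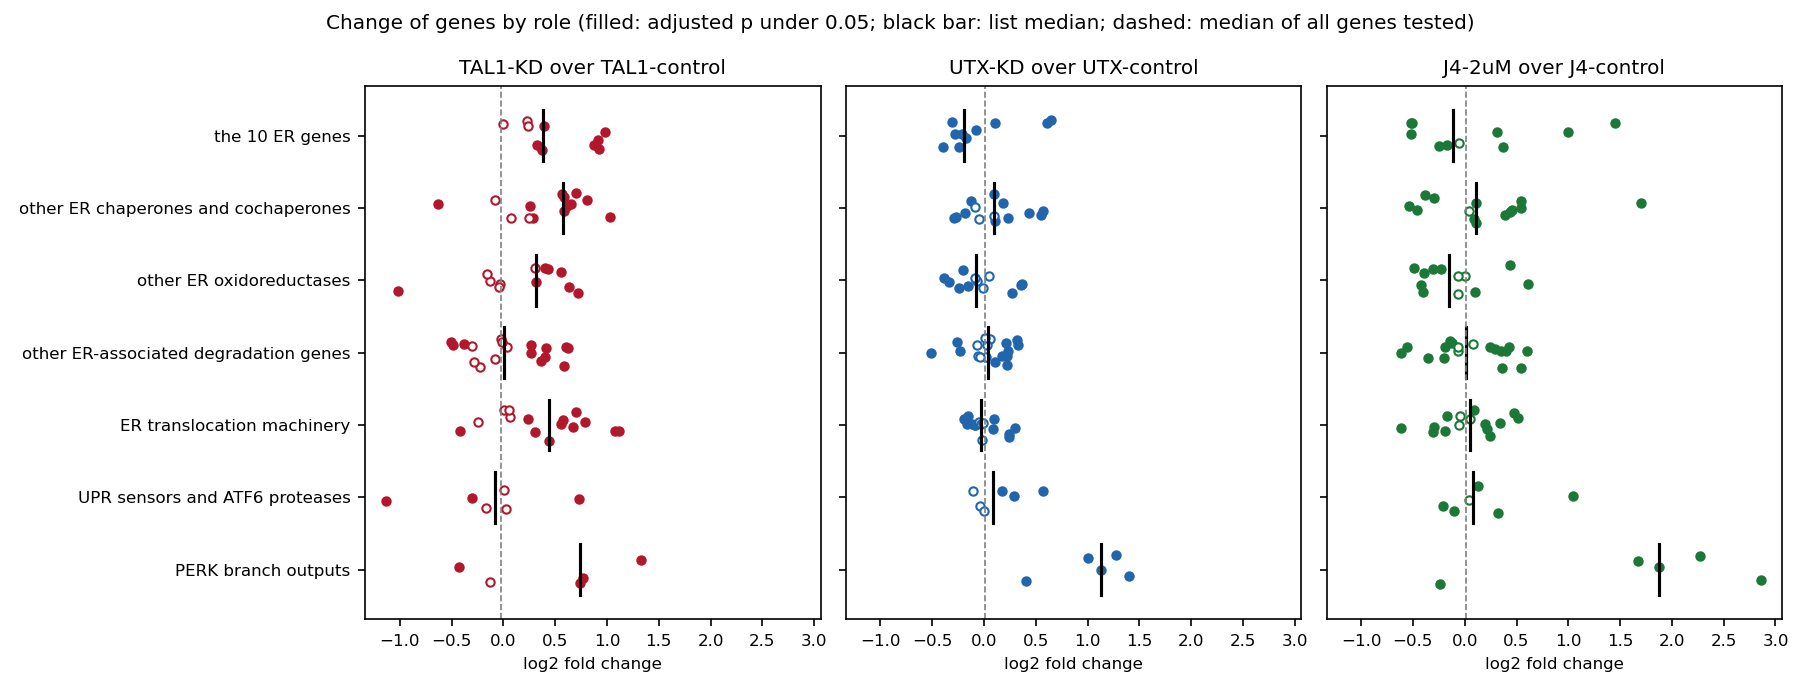
Log2 fold change (x axis) of the 10 ER genes and of 6 lists of related genes in the 3 comparisons, 1 point a gene, filled where the adjusted p was under 0.05, with a black bar at each list's median and a dashed line at the median of all genes tested. The PERK branch outputs have medians of 0.74, 1.13 and 1.88, while the median of the 10 ER genes is 0.38, -0.19 and -0.11.

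Some markers of cell identity also differed in the same libraries, where 54.2%, 50.5% and 74.9% of all genes were called (TAL1, UTX and GSK-J4). Of 8 T-cell markers, 2 were higher and 0 lower with the label TAL1-KD, 6 and 1 with the label UTX-KD, and 1 and 6 with GSK-J4. Their summed level was 1782 to 1848 CPM in J4-2uM, against 2074 to 2112 CPM in J4-control. Markers of other cell types summed to 96.4 to 104 CPM in J4-2uM, against 46.8 to 46.9 CPM in J4-control, with CD79A at 91.96 and 83.67 CPM in J4-2uM against 39.47 and 39.63 CPM in J4-control. They summed to 60.7 to 62.4 CPM with the label UTX-KD against 44.0 to 45.3 CPM in UTX-control, and to 66.4 to 69.5 CPM with the label TAL1-KD against 75.5 to 76.2 CPM in TAL1-control. The part of these shifts in the results for the ER genes was not tested.

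In the authors' deposited tables, the adjusted p was under 0.05 for 7 higher and 0 lower of the 10 genes with the label TAL1-KD, 3 and 7 with the label UTX-KD, and 4 and 5 with GSK-J4. The signs in the authors' deposited tables matched those computed here in 9, 10 and 10 of the 10 genes. The exception was SEL1L in the TAL1 comparison, at 0.014 in the authors' deposited table. Pseudogene copies could share reads with their parents: HSPA5P1 held 1 to 13 reads and HSP90B2P 22 to 78 reads in a library, few beside the 8067 to 26632 reads of HSPA5 and the 21440 to 50335 of HSP90B1.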

How the data were processed

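Stranded mRNA libraries (TruSeq kit) were sequenced from Jurkat cells, 12 in all. The submitters' processing notes name the hg19 build, the aligner TopHat2 (2.0.12), the counter HTSeq (0.6.1p1) and DESeq2. Annotation, strand setting and treatment of multi-mapping reads are not given in the sources used here. The authors deposited raw read counts per Ensembl gene for the 4 libraries of each comparison, with no normalization. Each deposited table also held DESeq2 log2 fold changes and p-values by the authors, used only where named. Its mean signal and test score columns, deposited by the authors, gave no result here.

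All other values were computed from the deposited counts in R 4.3.3. Low genes were removed with filterByExpr of edgeR 4.0.16, libraries were scaled by TMM, and each comparison was fitted on its 4 libraries with the two-sided quasi-likelihood test. P-values were adjusted by Benjamini-Hochberg over all genes tested, with 0.05 as the threshold. SE is the log2 fold change over the root of F. Differences of responses were interactions over 8 libraries, fitted on their own, so they can depart slightly from the difference of the 2 reported changes. Symbols and exon lengths came from GENCODE 29, and promoter sequences from RefSeq on GRCh38.p14, in which all 10 genes matched by symbol; no hg19 coordinates are given. The procedure was also run on simulated counts in which each gene had the same spread in all groups. That setting does not cover the unequal replicate spread of TAL1-KD and TAL1-control, and no value from it is reported here. The coefficient of variation between libraries of a group, beyond counting error, was 8.40% (TAL1), 2.30% (UTX) and 2.69% (GSK-J4).

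The 10 genes and the 11 lists (102 of 105 entries matched) were chosen with earlier results of these data known. Named genes are the 10, the targets, up to 3 called genes with the smallest adjusted p per list and comparison, and the 5 most alike to HSPA5, DNAJB9 and XBP1 among genes with a mean of at least 5 CPM. Some of these are not reported here. Replicate numbers were not used to pair libraries in the reported fits. Alternatives were other scalings, DESeq2 1.42.0, filters, thresholds, a fit on 12 libraries, a replicate block, each library left out and, added after seeing the data, removal of the trend with GC content and length.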

Additional observations from a re-analysis of the deposited data

Results flagged for a closer look

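The responses to the 3 treatments differed in 24 of 30 gene-by-pair tests (interaction in edgeR, adjusted p under 0.05), and each is given as the difference of log2 fold changes. Of all genes, 50.1% differed between the TAL1 and UTX responses, 53.9% between TAL1 and GSK-J4, and 58.4% between UTX and GSK-J4.

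The response with the label TAL1-KD was above that with the label UTX-KD by 1.29 for HSPA5, 1.30 for SDF2L1, 0.66 for PDIA4, 0.57 for HSP90B1, 0.57 for XBP1, 0.49 for CALR, 0.44 for PDIA6 and 0.33 for HERPUD1, and the calls of these last 2 were lost under scaling by total counted reads (0.17 and 0.066). Compared with GSK-J4, it was above by 1.42 for SDF2L1, 1.06 for HSPA5, 0.79 for PDIA6, 0.76 for HSP90B1, 0.65 for CALR and 0.59 for PDIA4. The TAL1 minus GSK-J4 difference was -0.50 for DNAJB9 and -0.29 for SEL1L (adjusted p = 0.0431 for SEL1L, edgeR), and the call of SEL1L was lost with any 1 library of TAL1-control, J4-2uM or J4-control left out.

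Between UTX-KD and GSK-J4, the UTX minus GSK-J4 difference was 0.34 for PDIA6, 0.19 for HSP90B1 and 0.16 for CALR, the last not called without J4-control replicate 2 (0.14). It was -0.82 for DNAJB9, -0.59 for XBP1, -0.40 for HERPUD1, -0.24 for HSPA5 and -0.21 for SEL1L. The 3 control groups lie at different levels for several of these genes, HSPA5 most of all, and the part of this in the differences was not tested.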

How the results depend on the processing

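Of 840 values of single genes under the alternatives, 753 kept direction and side of the threshold, 50 lost and 22 gained a call, and 15 changed sign. With the label TAL1-KD, higher and lower calls over all genes were 4424 and 4696; they were 2872 and 3046 at adjusted p under 0.01, 2865 higher with a fold change of at least 1.2, and 2431 to 5869 higher and 3094 to 6083 lower with 1 library left out. The 7 higher ER genes became 4 with that fold change and 4 to 10 with 1 library left out, and the 0 lower became 0 to 1. With the label UTX-KD, 4240 higher and 4269 lower became 2801 higher by the DESeq2 Wald test, 1201 and 1073 with the fold change and 2446 lower in the fit on 12 libraries, and the lower ER genes numbered 1 with the fold change. The DESeq2 fit also changed the scaling and the genes tested (29354 against 16847), so the test was not the only difference. Lower ER genes with GSK-J4 numbered 3 under total-read scaling and 3 with the fold change.

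Scaling by total counted reads shifted the median of all genes by -0.14 (TAL1), 0.09 (UTX) and 0.17 (GSK-J4), and gave 3023 higher and 5497 lower, 6327 and 2693, and 8652 and 4947 genes, against 6794 and 6616 for GSK-J4 by TMM. It reversed CALR with the label UTX-KD (0.014) and HSPA5 with GSK-J4 (0.12). SEL1L with the label TAL1-KD reversed with DESeq2 size factors (0.018), the Wald test (0.014), 12 libraries (0.016), removal of the GC and length trend (0.27, adjusted p = 0.0192) and 1 library left out (-0.13 to 0.12). For TAL1 minus UTX, SEL1L reversed with a library left out (-0.22 to 0.042) and with the GC and length trend removed (0.14), and the negative ER genes numbered 0 to 1 with a library left out. For TAL1 minus GSK-J4, XBP1 reversed with a library left out (-0.064 to 0.039) and with that trend removed (0.047); the 2 negative genes became 4 under total-read scaling, 1 at adjusted p under 0.01, 1 with the trend removed and 1 to 2 with a library left out. The causes were not tested.

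Replicate numbers were not used as a pairing. Same-numbered libraries correlated at 0.06, 0.03 and -0.03 in their deviations, which cannot show whether they were handled together. With a replicate block the ER genes called were 9 higher and 0 lower (TAL1), 3 and 6 (UTX) and 4 and 5 (GSK-J4), and all genes 4631 and 5130, 4165 and 4179, and 6829 and 6659. With a library left out, the lone one of its group is assumed to vary like the other group. Depth set a floor of 517 reads of an ER gene in a library, and 2 libraries a group limit the precision.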
